A study of Mus musculus with 42 samples.

Results

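The genes described here are 10 genes of cholesterol efflux and of the liver X receptors (LXRs), namely Nr1h2, Nr1h3, Abca1, Abcg1, Apoe, Mylip, Srebf1, Lpcat3, Scd1 and Scd2. They were chosen by symbol, as a list of known receptors, targets and lipid enzymes, and no measured value enters the rule, though earlier results of these data were known when the list was made. All 10 were found among the 37310 genes of a count table from mouse bone-marrow-derived macrophages (BMDM), which are bone marrow cells grown into macrophages in culture with medium conditioned by L929 cells. The WT group came from wild-type mice, and the KO group from mice with floxed alleles of Irf5 (Irf5 flox/flox), which encodes an interferon regulatory factor, and Cre recombinase driven by the Lyz2 locus (LysM-Cre). The mice were young adult males on a C57BL/6 background. Cells of each genotype were kept as Control for 0, 2 or 24 h, or were given for 2 or 24 h either palmitate, a saturated fatty acid, or lipopolysaccharide (LPS), the outer membrane lipid of Gram-negative bacteria. This gave 14 groups of 3 libraries. Lyz2-Cre acts in macrophages and also in granulocytes, and deletion with it can be incomplete.

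LXRα (encoded by Nr1h3) and LXRβ (Nr1h2) are nuclear receptors that bind oxysterols, the oxidised derivatives of cholesterol, and act as heterodimers with retinoid X receptors. In macrophages loaded with cholesterol they are known to turn on the transporters that pass cholesterol to apolipoproteins and high-density lipoprotein, to lower uptake of low-density lipoprotein, and to raise the synthesis and desaturation of fatty acids. Toll-like receptor signalling is known to interfere with LXR activity in macrophages, and the SREBP transcription factors run the opposite arm, in which cells short of sterol make and import it.

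The libraries held between 2848793 and 7743442 counts (median 5625399), and all 10 genes were among the 11624 that passed the filter on low counts. Levels are given as CPM (counts scaled to the library total, with TMM normalisation), on which 3 counts stood for 0.387 to 1.05 CPM. KO LPS 2 h library 1 was the shallowest and stood apart, with correlations of 0.9584 and 0.9647 to the other two libraries of its group. Irf5 was not lower in the libraries labelled KO (267 to 430.5 CPM against 209.5 to 388.9 in WT), and it was called higher in KO in 4 of 7 conditions. Counts over the whole gene cannot show the loss of some exons, so the genotype is given below as labelled. Lyz2, whose locus carries the Cre, was lower in KO in all 7 conditions (log2 difference -1.11 to -0.51). The treatments showed in their known responders against Control of the same time. Tnf rose with LPS at 2 h by 4.77 in WT and 4.65 in KO on the log2 scale. The lipid droplet gene Plin2 rose with palmitate by 0.93 and 1.10 at 2 h and by 1.99 and 2.02 at 24 h. Control cells themselves moved from 0 h, over both genotypes, with Tnf at 2.10 at 2 h and Plin2 at -0.72 at 2 h and -1.02 at 24 h. All 7 macrophage markers (Adgre1, Csf1r, Cd68, Itgam, Lyz2, Fcgr1 and Cd14) were detected, with a summed level of 9615 to 23450 CPM per library. Nothing states that the 3 libraries of a group came from separate mice or cultures, so p-values measure only the spread between these libraries, which may be technical. In bulk RNA, fewer cells of a type and less RNA per cell cannot be told apart.

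The members covered a wide range of levels. Divided by exon length, the median level over the 42 libraries was highest for Apoe, at 11730 CPM per kilobase, and Apoe alone took 1.362% to 2.887% of all counts in a library. Abca1 (88.17 CPM per kilobase), Mylip (75.36), Abcg1 (33.9) and Nr1h2 (27.57) came next. Nr1h3 stood at 16.49, Scd2 at 10.91, Srebf1 at 10.66 and Lpcat3 at 6.533 CPM per kilobase. Scd1 was near the limit of detection, at 0.3474 CPM per kilobase and 1 to 22 counts per library. The ratio of the highest to the lowest of the 14 group means was 6.879 for Nr1h3, 5.598 for Scd1, 2.966 for Abca1, 2.873 for Scd2, 2.527 for Mylip, 2.336 for Abcg1, 1.969 for Apoe, 1.825 for Lpcat3, 1.416 for Srebf1 and 1.352 for Nr1h2. The pair of receptors thus stood at opposite ends of this order, apart from the sparse Scd1.

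On GRCm38, the receptor genes lie at chr7:44549616-44553951 (Nr1h2, ENSMUSG00000060601, minus strand) and chr2:91184061-91202834 (Nr1h3, ENSMUSG00000002108, minus). The transporters lie at chr4:53030787-53159895 (Abca1, ENSMUSG00000015243, minus) and chr17:31057675-31117988 (Abcg1, ENSMUSG00000024030, plus). Apoe (ENSMUSG00000002985) lies at chr7:19696109-19699188 (minus), Mylip (ENSMUSG00000038175) at chr13:45389742-45412022 (plus), Srebf1 (ENSMUSG00000020538) at chr11:60199089-60222581 (minus) and Lpcat3 (ENSMUSG00000004270) at chr6:124663027-124704418 (plus). Scd1 (ENSMUSG00000037071, minus) and Scd2 (ENSMUSG00000025203, plus) share a stretch of chromosome 19, at chr19:44394455-44407879 and chr19:44293674-44306864. The sources do not say if reads were counted by strand. Srebf1 shares 109 exon bases with Rai1 and Lpcat3 shares 334 with Emg1, each on the other strand, so these counts carry some uncertainty. The paralogs Scd3 and Scd4, which could share reads with Scd1 and Scd2, did not exceed 0.3015 and 0.5539 CPM in any library. Counts per gene also do not separate transcripts that start at different sites, as Srebf1 has.

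LXR heterodimers are known to bind a direct repeat of their recognition unit with a spacing of 4 bases. RefSeq promoter windows (250 bases before to 50 after a start site, GRCm38.p6) were given for 7 members, 12 windows in all, and none was used here for Abcg1, Scd1 and Scd2. The search took GGTCA or GGTTA, any 5 bases, then GGTCA or GGTTA, with GGTTA in at most one place, on both strands. Of the 12 windows, those of Abca1 and of 1 of 3 Srebf1 start sites held a match, against 57 of 32851 windows of all genes (0.174%). The stretches around both matches are shown because such a repeat is what these windows have in common, with the repeat in capitals and 40 bases on each side, written in the sense of the gene, so that the repeat itself reads on the opposite strand:
Abca1: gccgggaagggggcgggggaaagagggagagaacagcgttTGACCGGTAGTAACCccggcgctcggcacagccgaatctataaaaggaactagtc
Srebf1: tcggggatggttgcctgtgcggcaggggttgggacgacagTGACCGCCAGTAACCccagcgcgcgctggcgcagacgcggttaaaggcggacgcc
The Abca1 stretch lies at chr4:53159908-53160002 (minus strand), from base -107 to -13 relative to the start site, and the Srebf1 stretch at chr11:60210599-60210693 (minus), from -222 to -128. No member window held the sterol response element, TCAC, any base, CCAC (1.24% of all windows) or the interferon regulatory factor motif, GAAA, any 2 bases, GAAA (3.44%), and no match overlapped another. A match of letters is a description of the sequence and not evidence of binding in these cells. Of these genes with such a repeat, Abca1 rose with LPS at 2 h, while Srebf1 passed the test in none of the 25 comparisons described below.

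Treated cells were compared with Control cells of the same genotype and time by edgeR's quasi-likelihood test. A call means an adjusted p under 0.05, with the adjustment made over all 11624 genes. Palmitate and LPS share their Control libraries, so their effects are given side by side. LPS moved more of the members than palmitate. At 2 h of LPS, 3 members were higher and 1 lower in WT (23.1% of all genes called), and 3 were higher and 2 lower in KO (23.9%). At 24 h of LPS, 2 were higher and 3 lower in WT (39.5%), and 2 were higher and 4 lower in KO (40.9%). Since so many genes moved with LPS, these counts by themselves show nothing particular to the members. Palmitate at 2 h raised 2 of the 10 in each genotype (0.275% of all genes called in WT and 0.112% in KO), the same pair of genes, Abcg1 and Mylip. Palmitate at 24 h raised 1 in KO (0.877%) and called 0 in WT (0.852%), where DESeq2 also called 0. In WT, 5 of 10 had an unadjusted p under 0.05 (edgeR), beside 1049 of all 11624 genes. The median log2 difference of the members lay between -0.06 and 0.18 over these 8 comparisons, against -0.01 to 0.00 over all genes.

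**Figure D1:**
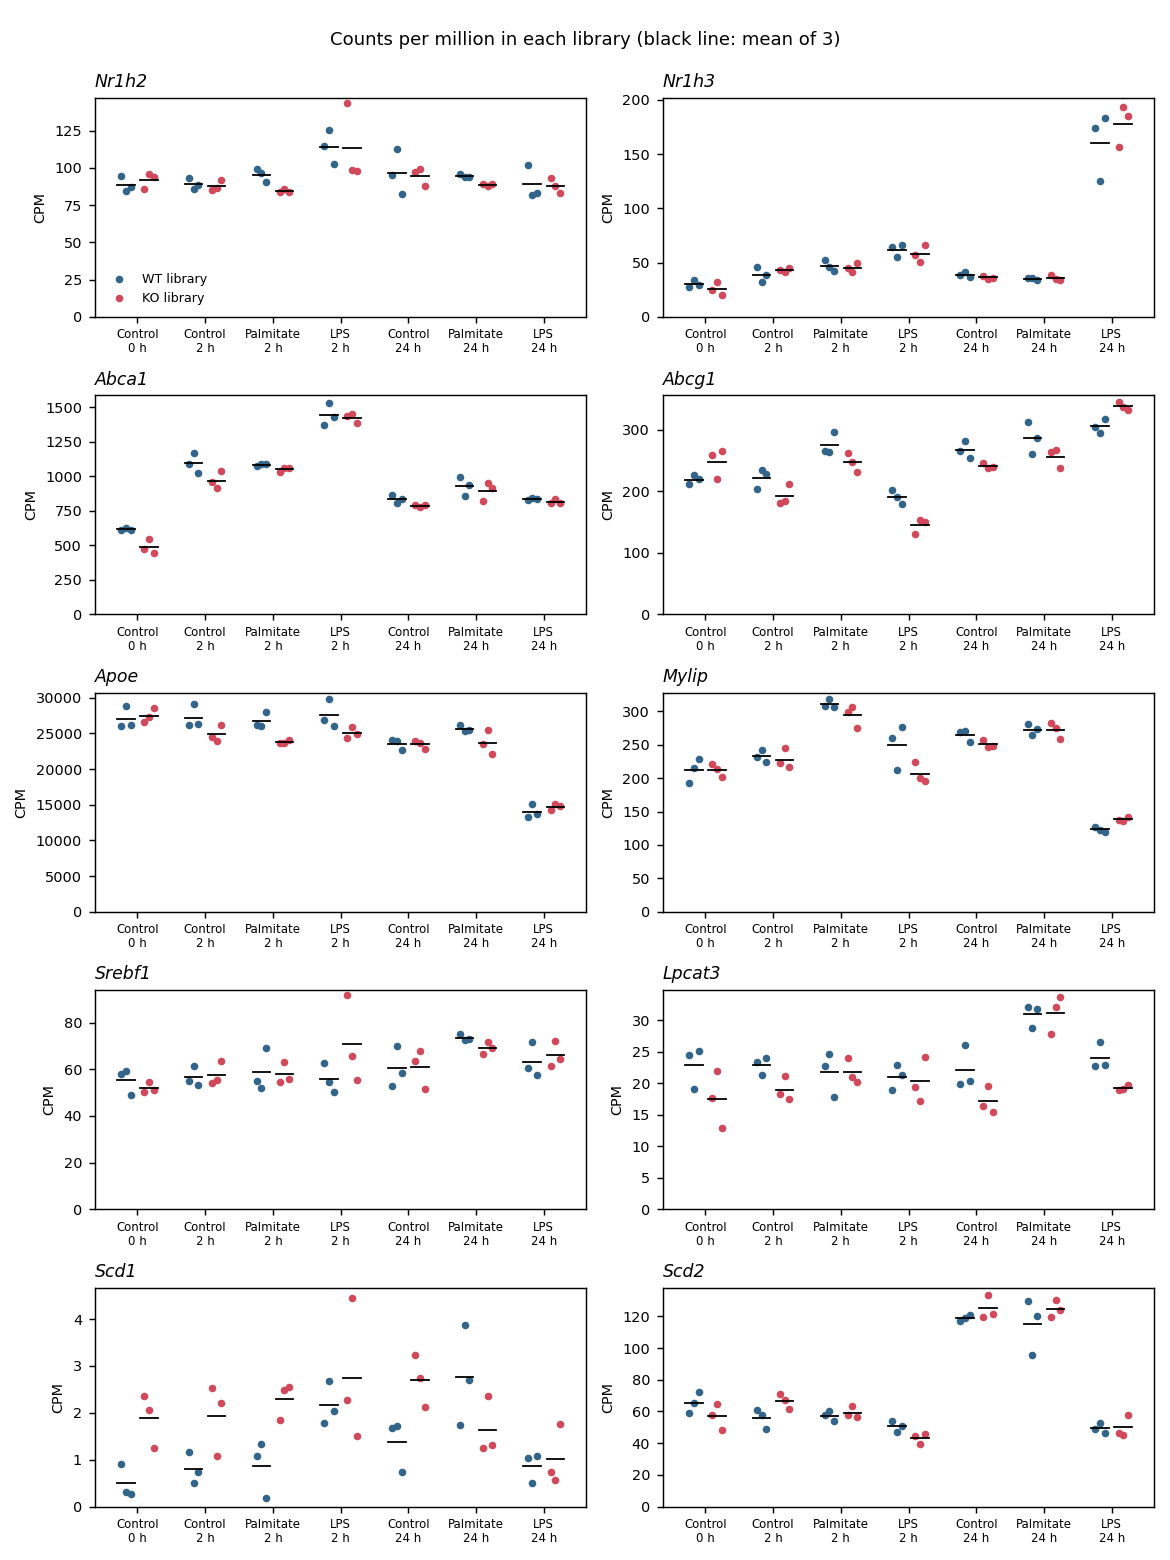
Level of each of the 10 genes in CPM (vertical axes, from 0) in each of the 42 libraries, by treatment and time, with WT in blue, KO in red and the mean of 3 as a black line. Nr1h3 stood at 124.8 to 193.1 CPM in the LPS 24 h libraries and at most 66.2 CPM in all others. Apoe and Mylip were lowest at LPS 24 h. Scd2 was highest in Control and palmitate at 24 h (group means 115.1 to 125 CPM). Its means at LPS 24 h (49.43 in WT and 49.9 in KO) lay near those at LPS 2 h (50.6 and 43.52).

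**Figure D2:**
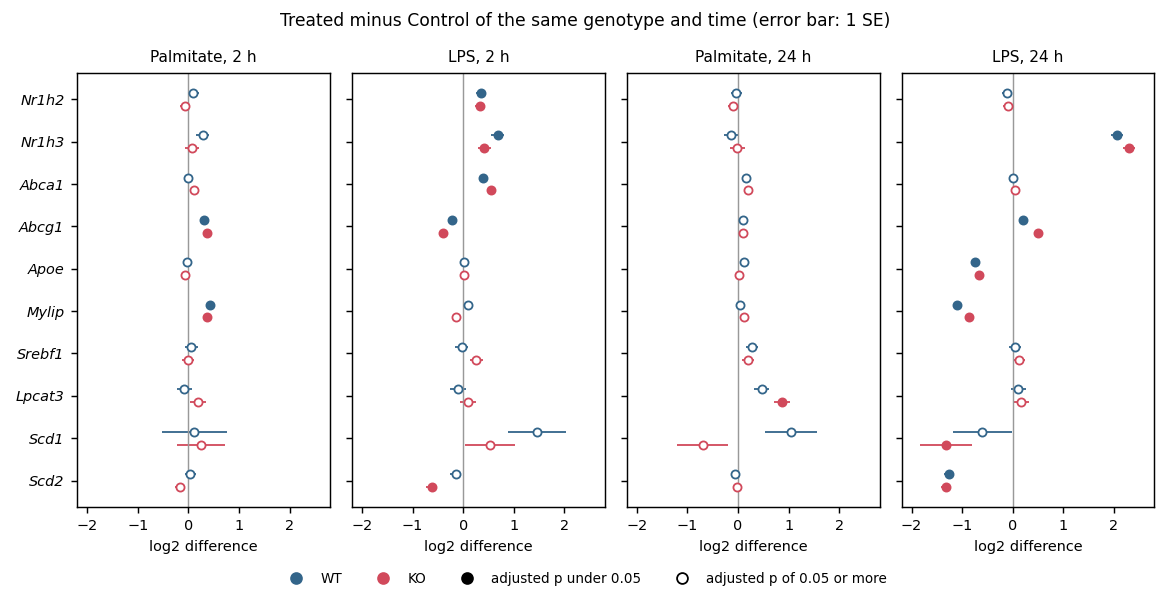
Log2 difference between treated and Control libraries of the same genotype and time for each gene, with 1 SE, in WT (blue) and KO (red). Filled points had an adjusted p under 0.05: at 24 h of LPS, Nr1h3 and Abcg1 lay above 0 and Apoe, Mylip and Scd2 below it in both genotypes.

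Nr1h3, the LXR that macrophages and liver are known to express strongly, showed the widest swing of the well-measured members. It stood at 38.5, 40.97 and 36.3 CPM in WT Control 24 h and at 173.7, 124.8 and 183.4 CPM after 24 h of LPS. In KO the Control values were 37.7, 34.99 and 36.1 CPM, and the LPS values were 156.3, 193.1 and 184.8 CPM. The LPS libraries lay far above all Control libraries, and Nr1h3 rose 4.17-fold in WT (log2 difference 2.06 ± 0.12 SE, adjusted p = 9.24e-20, edgeR) and 4.91-fold in KO (2.30 ± 0.12, adjusted p = 1.3e-21). At 2 h of LPS the rise was smaller, 0.68 ± 0.13 on the log2 scale in WT (adjusted p = 6.94e-05) and 0.42 ± 0.13 in KO (adjusted p = 0.0153). The call in KO was lost without KO Control 2 h library 2 (0.38) and without KO LPS 2 h library 3 (0.29). Palmitate gave no call for Nr1h3, with log2 differences between -0.13 and 0.28. The summed level of the 7 macrophage markers was also higher at 24 h of LPS than in Control 24 h, at 18060 to 23450 against 15810 to 16450 CPM in WT and 13370 to 13510 against 10490 to 11100 CPM in KO. In each genotype 5 of the 7 were called higher and 1 lower (39.5% of all genes called in WT and 40.9% in KO). The summed level of 7 granulocyte markers was lower, at 30.6 to 33.03 against 50.9 to 61.0 CPM in WT and 42.1 to 63.1 against 127 to 198.1 CPM in KO. Their part in this and the other LPS 24 h results was not tested.

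Nr1h2, the LXR that most tissues are known to express, was the steadiest member, between 82.08 and 143.9 CPM over all 42 libraries. It rose at 2 h of LPS in WT, from 93.3, 85.9 and 88.6 CPM in Control to 114.5, 125.2 and 102.9 CPM (log2 difference 0.35 ± 0.10 SE, adjusted p = 0.00571). In KO it went from 85.1, 86.8 and 91.6 CPM to 143.9, 98.5 and 98.0 CPM (0.34 ± 0.10, adjusted p = 0.00896). The groups did not overlap in either genotype, but the KO value rests on the shallow library that stands apart. Without KO LPS 2 h library 1 the log2 difference was 0.15 and was not called, and without WT LPS 2 h library 2 the WT value was 0.27 and was not called. At 24 h of LPS, Nr1h2 differed from Control by -0.12 ± 0.10 in WT and -0.10 ± 0.10 in KO, neither called. The 2 receptor genes were thus both called higher at 2 h of LPS, and at 24 h only Nr1h3 was. Granulocyte markers also moved at 2 h, with 7 markers summing to 19.3 to 32.9 CPM in WT Control, 43.1 to 55.7 with palmitate and 45.4 to 65.9 with LPS, and to 64.5 to 124.6, 85.1 to 146.7 and 117.9 to 203.2 CPM in KO. With LPS 3 of 5 tested were called higher in WT and 1 of 5 in KO. Their part in the 2 h results of any member was not tested.

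Abca1 encodes the transporter that loads cholesterol and phospholipid onto lipid-poor apolipoprotein A-I. It rose with 2 h of LPS, from 1089, 1165 and 1024 CPM in WT Control to 1375, 1532 and 1429 CPM, and from 957.5, 911.3 and 1039 CPM in KO Control to 1434, 1453 and 1383 CPM. Every LPS library exceeded every Control library, and the fitted rise was 1.32-fold in WT (log2 difference 0.40 ± 0.06 SE, adjusted p = 4.42e-07) and 1.47-fold in KO (0.55 ± 0.06, adjusted p = 1.35e-10). By 24 h no difference was called. The WT values were 867.7, 809.1 and 838.4 CPM in Control and 829.9, 842.5 and 835.9 CPM with LPS (-0.00 ± 0.06), and the KO difference was 0.05 ± 0.06. Palmitate differences were not called either, and lay between -0.01 and 0.19 in the 4 comparisons.

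Abcg1, which exports cholesterol towards mature high-density lipoprotein particles, moved against Abca1 at 2 h of LPS. In WT it fell from 204.6, 234.8 and 227.9 CPM in Control to 202.1, 191.3 and 179.6 CPM (log2 difference -0.23 ± 0.08 SE, adjusted p = 0.0242). In KO it fell from 180.4, 185.1 and 211.9 CPM to 131, 153.2 and 150.9 CPM (-0.40 ± 0.08, adjusted p = 6.37e-05). By 24 h of LPS the sign had turned, with WT libraries at 304.5, 295.7 and 317.4 CPM against 266.4, 281.3 and 253.9 CPM in Control (0.20 ± 0.07, adjusted p = 0.0274). KO libraries stood at 345.6, 338 and 332.8 CPM against 246.3, 238.2 and 239.1 CPM (0.49 ± 0.07, adjusted p = 1.6e-07). None of these groups overlapped, and the KO calls held without any 1 library. The WT call at 2 h was lost without WT Control 2 h library 2 (-0.19) or 3 (-0.21) or WT LPS 2 h library 3 (-0.18), and the WT call at 24 h without WT Control 24 h library 1 (0.20) or 3 (0.16) or WT LPS 24 h library 3 (0.17).

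Abcg1 was also 1 of the 2 members that palmitate raised at 2 h. It stood at 265.1, 263.4 and 296.5 CPM in WT palmitate, above all 3 Control libraries (log2 difference 0.31 ± 0.07 SE, adjusted p = 0.0476), and at 262.9, 248.5 and 232.1 CPM in KO palmitate (0.36 ± 0.07, adjusted p = 0.0155). These calls were close to the threshold. The WT call was lost on leaving out any of its 6 libraries (0.25 to 0.35), and the KO call without KO Control 2 h library 1 or 2 or KO palmitate 2 h library 1 or 2 (0.32 to 0.36). At 24 h of palmitate the differences were 0.10 ± 0.07 in WT and 0.09 ± 0.07 in KO, neither called.

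Apoe encodes apolipoprotein E, which macrophages secrete and which accepts exported cholesterol. It stood at 24060, 23940 and 22600 CPM in WT Control 24 h and at 13330, 15080 and 13670 CPM after 24 h of LPS. KO Control libraries held 23890, 23610 and 22830 CPM, and KO LPS libraries 14310, 15120 and 14750 CPM. The LPS 24 h libraries were the 6 lowest of all 42, and Apoe fell by 0.75 ± 0.05 SE on the log2 scale in WT (adjusted p = 1.23e-16) and by 0.67 ± 0.05 in KO (adjusted p = 4.77e-15). At 2 h of LPS it differed by 0.02 ± 0.05 in WT and 0.01 ± 0.05 in KO, and palmitate differences lay between -0.06 and 0.12, none called.

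Mylip encodes the ubiquitin ligase, also called IDOL, that sends the low-density lipoprotein receptor to degradation. Palmitate raised it at 2 h, from 231.5, 242.7 and 224.2 CPM in WT Control to 308.2, 317.9 and 307 CPM (log2 difference 0.42 ± 0.07 SE, adjusted p = 0.000448). In KO it rose from 222.4, 244.6 and 216.5 CPM to 299.8, 306.6 and 275.4 CPM (0.37 ± 0.07, adjusted p = 0.00412). The groups did not overlap in either genotype, and the WT call held without any 1 library. The KO call was lost without KO Control 2 h library 1 (0.35) or 3 (0.33) or KO palmitate 2 h library 2 (0.34). At 24 h the palmitate differences were 0.04 ± 0.07 and 0.12 ± 0.07, neither called.

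LPS moved Mylip the other way, and late. At 24 h it stood at 126.8, 122.5 and 120 CPM in WT LPS against 269.2, 270.5 and 254.7 CPM in Control, a fall of 2.15-fold (log2 difference -1.10 ± 0.07 SE, adjusted p = 2.15e-18). In KO it stood at 137.3, 136.1 and 141.1 CPM against 257.2, 246.6 and 247.9 CPM, a fall of 1.81-fold (-0.86 ± 0.07, adjusted p = 1.25e-14). At 2 h of LPS the differences were 0.10 ± 0.07 in WT and -0.15 ± 0.07 in KO, neither called. The WT value was called at 0.20 without WT LPS 2 h library 2, and the KO value at -0.21 without KO LPS 2 h library 1.

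Srebf1 encodes SREBP-1, the transcription factor that drives fatty acid synthesis and is a classical LXR target in liver. It was called in none of the 25 comparisons, and its 42 libraries lay between 48.95 and 91.87 CPM. Its largest difference from Control was with palmitate at 24 h in WT, where it stood at 75.1, 72.8 and 73.3 CPM against 53.1, 70.3 and 58.6 CPM (log2 difference 0.27 ± 0.12 SE, adjusted p = 0.455). The highest value of all, 91.87 CPM, belonged to KO LPS 2 h library 1, whose fellow libraries stood at 65.9 and 55.4 CPM. The LPS 2 h difference in KO was 0.26 ± 0.13 (adjusted p = 0.131). It was 0.06 without that library, and 0.41 and called without KO LPS 2 h library 3.

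Lpcat3 encodes the acyltransferase that places polyunsaturated fatty acids into phospholipids. It was the member that palmitate raised at 24 h, in KO from 16.4, 19.5 and 15.4 CPM to 27.9, 32.1 and 33.7 CPM (1.83-fold, log2 difference 0.87 ± 0.15 SE, adjusted p = 0.000369). In WT it stood at 19.9, 26.1 and 20.4 CPM in Control and at 32.2, 28.8 and 31.8 CPM with palmitate. These WT groups did not overlap either, but the difference of 0.47 ± 0.15 was not called (adjusted p = 0.147). The effects in KO and WT differed by 0.40 ± 0.21 (adjusted p = 1), so a difference between genotypes was not shown. LPS differences lay between -0.11 and 0.17, none called. Emg1 overlaps Lpcat3 on the other strand.

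Scd1 and Scd2 encode stearoyl-CoA desaturases, which turn saturated into monounsaturated fatty acids. Scd2 was the main form in these cells, at 39.71 to 133.4 CPM against 0.1782 to 4.457 CPM for Scd1. After 24 h of LPS, Scd2 stood at 49.1, 52.8 and 46.4 CPM in WT against 117.1, 119.1 and 121.1 CPM in Control, and at 46.7, 45.2 and 57.8 CPM in KO against 119.9, 133.4 and 121.8 CPM. The groups were widely separated. Scd2 was 2.41-fold below Control 24 h in WT (log2 difference -1.27 ± 0.10 SE, adjusted p = 2.91e-15) and 2.50-fold in KO (-1.32 ± 0.10, adjusted p = 5.1e-16). Mean Scd2 at Control 0 h was 65.53 CPM in WT and 57.01 CPM in KO, beside 49.43 and 49.9 CPM at LPS 24 h. These groups were not tested against each other. At 2 h of LPS, Scd2 fell in KO, from 71.3, 67.1 and 61.2 CPM to 44.8, 39.7 and 46.1 CPM (-0.62 ± 0.11, adjusted p = 1.99e-05). In WT it was 61.0, 57.6 and 49.2 CPM in Control and 53.7, 47.1 and 51.1 CPM with LPS (-0.15 ± 0.11, adjusted p = 0.395). The genotypes' effects differed by -0.47 ± 0.16, which was not called (adjusted p = 0.434). Palmitate, which is converted to a substrate of these enzymes, gave no called difference in Scd2 (-0.17 to 0.04).

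Scd1 was too sparse for firm statements. It fell at 24 h of LPS in KO, from 3.23, 2.73 and 2.12 CPM to 0.746, 0.560 and 1.76 CPM (log2 difference -1.32 ± 0.52 SE, adjusted p = 0.037). Summed over libraries these were 20 counts with LPS and 43 in Control, a ratio per total count of 0.388 with an exact 95% interval of 0.216 to 0.675 that covers counting error only. The call was lost without KO Control 24 h library 1 (-1.19) or 2 (-1.30) or KO LPS 24 h library 1 (-1.13) or 2 (-1.07). At 24 h of palmitate Scd1 differed from Control by 1.05 ± 0.52 in WT and -0.70 ± 0.50 in KO, neither called, and these effects differed by -1.75 ± 0.72 (adjusted p = 1).

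The time in culture was compared in Control cells over both genotypes. From 0 to 2 h, 2 members rose and 1 fell (16.7% of all genes called), and from 0 to 24 h, 4 rose and 1 fell (16.5%). Abca1 moved most at 2 h, from 607.9 to 627.5 CPM in WT Control 0 h and 445.3 to 544 CPM in KO to the values at 2 h given above, a rise of 1.88-fold (log2 difference 0.91 ± 0.04 SE, adjusted p = 6.56e-23). At 24 h it was still 1.48-fold above 0 h (0.57 ± 0.04, adjusted p = 1.64e-14). This rise in Control cells of 0.91 stands beside LPS effects of 0.40 and 0.55 at 2 h, and the sizes were not tested against each other. Scd2 rose 1.99-fold by 24 h (1.00 ± 0.07, adjusted p = 1.09e-15), from 59.2, 65.0 and 72.4 CPM in WT and 57.9, 64.9 and 48.2 CPM in KO, and differed by -0.01 ± 0.07 at 2 h. Nr1h3 rose by 0.54 ± 0.10 at 2 h (adjusted p = 3.24e-05) and 0.42 ± 0.10 at 24 h (adjusted p = 0.00221), and Mylip by 0.28 ± 0.05 at 24 h (adjusted p = 3.14e-05). Apoe fell by 0.21 ± 0.04 at 24 h (adjusted p = 3.34e-05), and Abcg1 by 0.17 ± 0.05 at 2 h (adjusted p = 0.0147). For Abcg1 this pooled value covers unlike means in the genotypes, with 219.3 CPM at 0 h and 222.4 at 2 h in WT and 248.6 and 192.5 CPM in KO, and the change was not tested in each genotype. The Abcg1 call was lost (-0.15 to -0.14) without WT Control 2 h library 1, KO Control 0 h library 1 or 3, or KO Control 2 h library 1 or 2. Mylip was called at 2 h (0.15) without WT Control 0 h library 3, and Scd1 at 24 h (1.30) without WT Control 0 h library 1. Cell markers moved with time as well. Of 7 macrophage markers, 1 was called higher and 2 lower at 2 h (16.7% of all genes called), and 1 higher and 4 lower at 24 h (16.5%). Of 5 tested granulocyte markers 0 were called at 2 h and 2 were higher at 24 h, and of 2 tested dendritic cell markers 0 and 1. Their part in the changes with time was not tested.

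Palmitate and LPS were also set directly against each other over both genotypes, without the Control libraries. At 2 h, 3 members were higher and 3 lower with palmitate (35% of all genes called). Abcg1 was higher with palmitate by 0.65 ± 0.05 SE on the log2 scale (adjusted p = 1.31e-14), Mylip by 0.42 ± 0.05 (adjusted p = 7.85e-10) and Scd2 by 0.32 ± 0.08 (adjusted p = 0.00118). Abca1 was lower by -0.43 ± 0.04 (adjusted p = 6.56e-12), Nr1h3 by -0.38 ± 0.09 (adjusted p = 0.000911) and Nr1h2 by -0.33 ± 0.07 (adjusted p = 0.00018). The 2 transporters thus stood on opposite sides. Scd1, at -0.82 ± 0.38 and not called, was called at -0.97 without KO LPS 2 h library 3.

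At 24 h, 6 members were higher and 2 lower with palmitate than with LPS (51.8% of all genes called). Nr1h3 was lower by -2.25 ± 0.09 SE (adjusted p = 7.21e-28) and Abcg1 by -0.25 ± 0.05 (adjusted p = 5.5e-05). Scd2 was higher by 1.27 ± 0.07 (adjusted p = 2.44e-21), Scd1 by 1.14 ± 0.38 (adjusted p = 0.0107), Mylip by 1.06 ± 0.05 (adjusted p = 3.31e-24), Apoe by 0.78 ± 0.04 (adjusted p = 1.74e-23), Lpcat3 by 0.53 ± 0.10 (adjusted p = 1.69e-05) and Abca1 by 0.14 ± 0.04 (adjusted p = 0.00413). The side of both transporters had turned between 2 and 24 h. Srebf1 and Nr1h2 were not called.

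The change of each effect from 2 to 24 h was tested as the 24 h difference from Control minus the 2 h difference, over both genotypes. For LPS, 2 members had a higher and 6 a lower value at 24 h (46.3% of all genes called), and for palmitate 1 was higher and 1 lower (1.28%). The values of these 10 calls are given with the results for a closer look. The Lpcat3 call for palmitate (0.62 ± 0.15 SE, adjusted p = 0.0195) was lost without WT Control 24 h library 3 or KO Control 24 h library 3 (0.58 each).

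The genotypes were compared in each of the 7 conditions. At Control 0 h, 1 member was higher and 1 lower in KO (12.5% of all genes called). At LPS 2 h, 1 was lower (0.465%). In the other 5 conditions edgeR called 0 members, and DESeq2 called 0 as well. Of all genes, 0.49% were called at Control 2 h, 0.146% at palmitate 2 h and 0.12% at Control 24 h. The share was 0.0688% at palmitate 24 h and 0.146% at LPS 24 h. At an unadjusted p under 0.05 (edgeR) there were 5 members at Control 2 h, beside 1172 of all 11624 genes. There were 3 members at palmitate 2 h (1032 genes) and 1 at Control 24 h (587). At palmitate 24 h there were 2 (891) and at LPS 24 h 3 (1056). Markers of other cells also differed with genotype, and their part in the results was not tested. At Control 0 h the summed level of 4 fibroblast markers (Col1a1, Col1a2, Col3a1 and Dcn) was 0.397 to 0.905 CPM in WT and 41.6 to 68.7 CPM in KO. All 3 tested markers were called higher in KO there. Dcn was at 0 in all WT Control 0 h libraries. It did not exceed 0.7655 CPM in any library, and its highest group mean was in WT LPS 24 h. The summed level of 7 granulocyte markers was 47.2 to 54.4 CPM in WT and 72.9 to 81.3 CPM in KO at Control 0 h, where 1 of 5 tested was higher, and 45.4 to 65.9 against 117.9 to 203.2 CPM at LPS 2 h, where 2 of 5 were. Fibroblast markers at LPS 2 h summed to 0.371 to 0.716 CPM in WT and 0.759 to 151.1 CPM in KO, with 0 of 3 called. The 7 macrophage markers summed to 15170 to 15510 CPM in WT and 10140 to 14140 CPM in KO at Control 0 h. Of these 7, 2 were called higher and 3 lower in KO, with a median log2 difference of 0.12. Lyz2, whose locus carries the Cre, was among the lower and weighs heavily in this sum, with a median of 8216 CPM over all libraries.

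**Figure D3:**
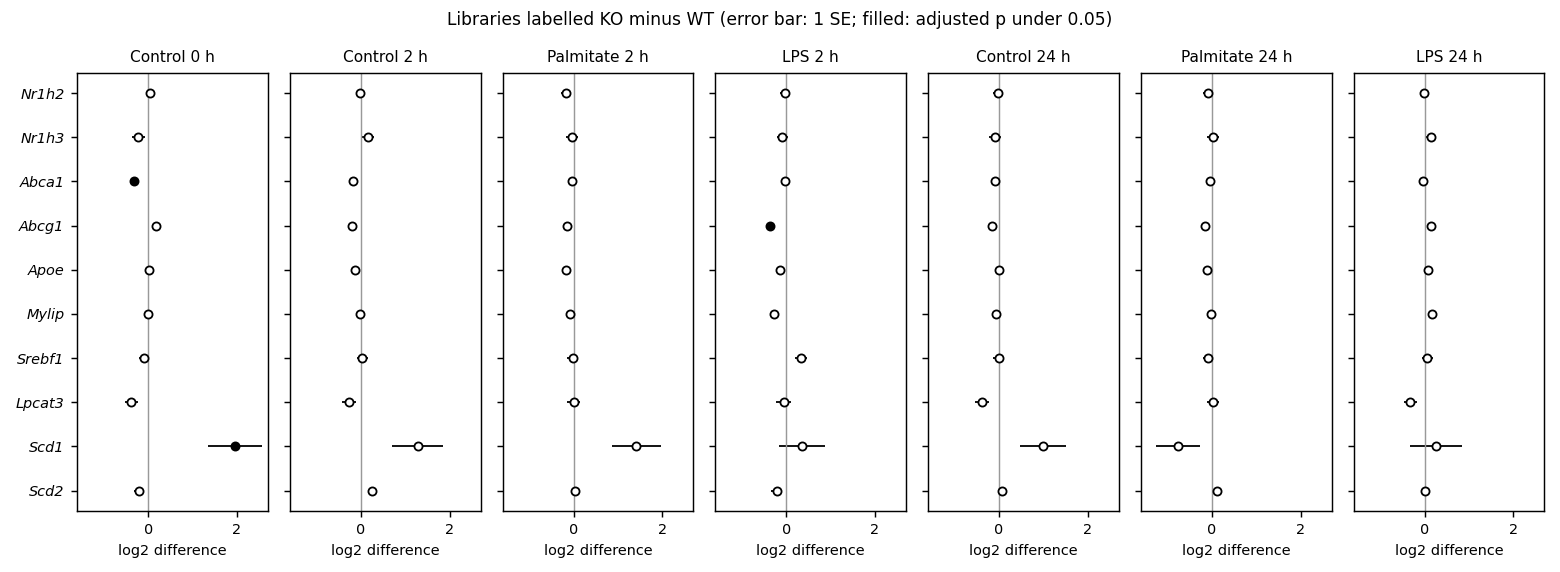
Log2 difference between libraries labelled KO and WT for each gene (rows) in each of the 7 conditions (panels), with 1 SE. The 3 filled points had an adjusted p under 0.05: Abca1 at -0.33 and Scd1 at 1.95 in Control 0 h, and Abcg1 at -0.38 in LPS 2 h.

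Abca1 at Control 0 h was at 608.9, 627.5 and 607.9 CPM in WT and 472.5, 544 and 445.3 CPM in KO. All KO libraries were below all WT libraries (log2 difference -0.33 ± 0.06 SE, adjusted p = 0.000169), and the call held without any 1 library. In the other 6 conditions the difference lay between -0.17 and -0.02, not called. Scd1 at Control 0 h had 5, 2 and 2 counts in WT and 12, 12 and 7 in KO (1.95 ± 0.61, adjusted p = 0.028). Summed, 31 counts stood against 9, a ratio per total count of 4.26 with an exact 95% interval of 1.98 to 10.2. The Scd1 call was lost without WT Control 0 h library 2 (1.74) or 3 (1.63) or KO Control 0 h library 1 (1.78) or 2 (1.90). Calls appeared at Control 0 h for Lpcat3 without WT Control 0 h library 2 (-0.50) or KO Control 0 h library 2 (-0.57), and for Abcg1 without KO Control 0 h library 2 (0.27).

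Abcg1 is a gene that the study singled out partly on these libraries, so its value here is not independent evidence. The study asked for a genotype difference in BMDM and in adipose tissue macrophages, and for published IRF5 binding at or upstream of the start site. Its cut was a Wald test p-value with a minimum log2 difference, which is not the threshold used here. At LPS 2 h it stood at 202.1, 191.3 and 179.6 CPM in WT and at 131, 153.2 and 150.9 CPM in KO. All KO libraries were below all WT libraries (log2 difference -0.38 ± 0.08 SE, adjusted p = 0.00898), and 0.465% of all genes were called. The call was lost without WT LPS 2 h library 1 (-0.35) or KO LPS 2 h library 1 (-0.33). The fit of only the 6 libraries compared did not call it either. In the other 6 conditions no difference was called, and the sign varied, with -0.21 ± 0.07 in Control 2 h, 0.18 ± 0.07 in Control 0 h and 0.15 ± 0.07 in LPS 24 h. Mylip at LPS 2 h stood at 259.7, 211.7 and 276.2 CPM in WT and 224, 200.2 and 196.1 CPM in KO. This difference of -0.27 ± 0.07 was not called by edgeR (adjusted p = 0.0736) and was called by DESeq2 (adjusted p = 0.048). It was also called without WT LPS 2 h library 2 (-0.39) or KO LPS 2 h library 1 (-0.33).

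Whether a treatment acted differently in the genotypes was tested by the treatment effect in KO minus that in WT. edgeR called 0 of 10 members in each of the 4 tests, and DESeq2 called 0 as well. Over all genes 0% were called for palmitate at 2 h, LPS at 2 h and palmitate at 24 h, and 0.0086% for LPS at 24 h. At an unadjusted p under 0.05 there were 0, 2, 1 and 2 members in these tests, beside 486, 810, 411 and 628 of all 11624 genes. For Abcg1 the LPS effect in KO minus that in WT was -0.17 ± 0.11 SE at 2 h and 0.30 ± 0.10 at 24 h (adjusted p = 0.767 and 0.924), and for Mylip it was -0.24 ± 0.10 and 0.25 ± 0.10 (adjusted p = 0.612 and 0.924).

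Other genes of the pathway were counted by list. Beside these counts, the share of all genes called was 23.1% in WT and 23.9% in KO at 2 h of LPS, 39.5% and 40.9% at 24 h of LPS, and 12.5% between genotypes at Control 0 h. Of 12 further LXR targets, 10 were tested, and with LPS at 24 h 2 were higher and 5 lower in WT and 3 higher and 4 lower in KO. At 2 h of LPS 1 was higher and 1 lower in WT, and 1 higher and 2 lower in KO. Lpl, the lipoprotein lipase, fell by 1.55 ± 0.07 SE on the log2 scale in WT and by 1.42 ± 0.07 in KO at 24 h. Arl4c, a small GTPase, fell by 0.38 and 0.44 at 2 h and by 1.10 and 1.03 at 24 h. Tgm2, a transglutaminase, rose by 0.49 and 0.68 at 2 h and by 0.36 and 0.48 at 24 h. These targets therefore did not move in a single direction with LPS, as the members did not. Between genotypes, 2 were higher and 6 lower in KO at Control 0 h, and Cd5l, which encodes a secreted macrophage protein, was lower in KO in 6 of 7 conditions (-1.06 to -0.64).

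Of 13 receptor partners, corepressors and coactivators, 12 were tested. LPS called 1 higher and 1 lower at 2 h in each genotype, and 1 higher with 2 lower in WT and 1 lower in KO at 24 h. Rxra, the retinoid X receptor partner of the LXRs, fell by 0.34 in WT and 0.45 in KO at 2 h and by 0.54 and 0.47 at 24 h on the log2 scale. Nrip1, a corepressor, rose by 0.84 and 0.92 at 2 h, and Gps2, a subunit of the nuclear corepressor complex, rose by 0.26 and 0.29 at 24 h. Rxra thus fell at 24 h of LPS in the same libraries in which Nr1h3 was highest.

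Of 16 genes of oxysterol synthesis and of cholesterol uptake, storage and transport, 15 were tested. LPS at 2 h called 6 higher in each genotype, with 1 lower in WT and 2 in KO (23.1% and 23.9% of all genes). At 24 h it called 5 higher and 7 lower in WT and 4 higher and 7 lower in KO (39.5% and 40.9%). Scarb1, the scavenger receptor for high-density lipoprotein, fell by 1.34 in WT and 1.30 in KO at 24 h on the log2 scale. Lipa, the lysosomal acid lipase, fell by 0.93 and 0.89, and the fatty acid receptor Cd36 by 0.90 and 1.13. Npc2, which moves cholesterol out of lysosomes, rose by 0.94 and 0.86. With palmitate at 24 h, Cd36 rose by 0.45 and 0.39. All 10 genes of fatty acid synthesis, elongation and desaturation were tested, and LPS at 24 h lowered 2 in WT and 3 in KO, among them Fasn, the fatty acid synthase, by 1.13 and 1.24. Of 8 paralogs of the members, 5 were tested, and the lysophospholipid acyltransferase gene Lpcat2 rose at 24 h of LPS by 1.57 in WT and 1.26 in KO, where Lpcat3 was not called.

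Of 16 sterol synthesis genes and their regulators, 15 were tested. With LPS at 2 h, 7 rose and 0 fell in WT (median log2 difference 0.36 over the 15, against -0.01 over all genes) and 5 rose and 0 fell in KO (0.29). At 24 h, 11 fell and 0 rose in WT (-0.64) and 12 fell and 0 rose in KO (-0.82). Insig1, whose product holds SREBPs back in the endoplasmic reticulum, rose at 2 h by 1.42 in WT and 1.15 in KO on the log2 scale and fell at 24 h by 1.10 and 1.08. Cyp51, a demethylase of the pathway, rose by 0.99 and 0.80 and then fell by 1.45 and 1.66, and Msmo1, a methyl oxidase, rose by 0.36 and 0.39 and then fell by 0.86 and 1.16.

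**Figure D4:**
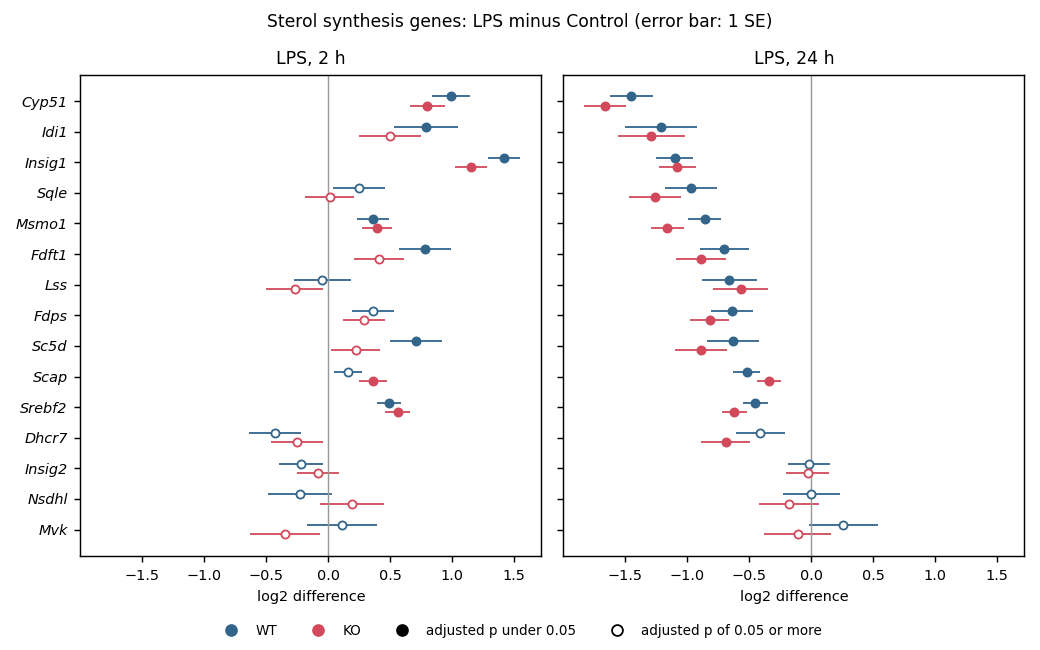
Log2 difference between LPS and Control of the same genotype for the 15 tested sterol synthesis genes (rows), with 1 SE, at 2 h (left) and 24 h (right), in WT (blue) and KO (red). Filled points had an adjusted p under 0.05, and they lay above 0 at 2 h (7 in WT and 5 in KO) and below 0 at 24 h (11 and 12).

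The genes most like each member over the 14 group means of log2 CPM were found among 7749 tested genes whose mean reached 10 CPM or more. These correlations describe points that share libraries and depth. For Nr1h3 they were Vav1 (Pearson r = 0.972) and Hk3 (0.971), for Apoe Adcy3 (0.988) and Igf1 (0.983), for Scd2 Mgst1 (0.973) and Mertk (0.929), and for Mylip Tbc1d12 (0.946) and Numa1 (0.939). For Abca1 they were Skil (0.938) and Akap13 (0.923), for Abcg1 Zdhhc3 (0.927) and Ruvbl2 (0.925), and for Nr1h2 Cdv3 (0.95) and Ranbp2 (0.932). The likeness was weaker for Scd1 (Cdc5l, 0.875, and Arhgap24, 0.833), Srebf1 (1810030O07Rik, 0.819, and Ganab, 0.798) and Lpcat3 (Scarb2, 0.808, and Etfdh, 0.787). Among the members themselves, Nr1h3 ran against Apoe (r = -0.88) and Mylip (-0.77), Mylip ran with Apoe (0.81), Abca1 ran with Nr1h2 (0.56), and the 2 transporters ran weakly against each other (-0.46), all over 14 group means.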

How the data were processed

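RNA-seq was made from 42 BMDM libraries with a stranded, ribodepleted total RNA kit and paired-end sequencing. The values the authors deposited are raw, unnormalised read counts per gene. The submitters' processing notes name fastp 0.19.11, STAR 2.7.3a and the builds mm10 and mm9. The annotation release and the use of strand in counting are not given in the sources used here. Columns carry only the group name, and library numbers here follow their order and pair nothing. Positions are those of the GRCm38 annotation.

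The analysis used edgeR 4.0.16 (R 4.3.3). The filter filterByExpr left 11624 genes, which held 99.88% of counts. TMM scaling was used, and all 42 libraries entered one quasi-likelihood fit of 14 group means. The 25 contrasts were adjusted by Benjamini-Hochberg over all genes tested, at a threshold of 0.05. SEs were obtained from F, as the absolute log2 difference over its root. Of 42 pairs of libraries within groups, none matched within sampling noise (chi-square per degree of freedom 1.914 to 8.731). Intervals cover counting error only.

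The members and all lists were chosen with earlier results of these data known. All members were named. From each list of other genes at most 4 were named per kind of comparison, those with the smallest adjusted p. For each member the 2 most correlated genes were named. Marker lists covered macrophages, granulocytes, fibroblasts, B cells (at most 5.2 CPM summed), T and NK cells (1.43), dendritic cells (6.7), adipocytes (0.38) and erythroid cells, of which Hbb-bs was at 0 in all libraries. The alternatives were RLE size factors, all genes with a count, only the libraries compared, no Control 0 h libraries, DESeq2 1.42.0, the test used by the study, and leaving out each library. Other libraries of the study were not analysed here, and some sterol synthesis genes are not reported here.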

Additional observations from a re-analysis of the deposited data

Results flagged for a closer look

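For 8 members the effect of LPS differed between 24 h and 2 h by the test of that difference in edgeR, over both genotypes. Of all genes 46.3% were called in this test, so the count by itself shows nothing particular to the members. Nr1h3 gained 1.63 on the log2 scale from the 2 h to the 24 h effect (adjusted p = 2.3e-15) and Abcg1 gained 0.66 (adjusted p = 2.27e-10), the latter from a fall at 2 h to a rise at 24 h. The later effect was lower for Mylip by -0.96 (adjusted p = 2.71e-16), for Scd2 by -0.91 (adjusted p = 4.46e-10), for Apoe by -0.73 (adjusted p = 2.75e-16), for Abca1 by -0.46 (adjusted p = 1.41e-08) and for Nr1h2 by -0.46 (adjusted p = 0.000144). For the sparse Scd1 it was lower by -1.96 (adjusted p = 0.00282). For palmitate the effect differed in 2 members (1.28% of all genes called), with Lpcat3 higher at 24 h by 0.62 (adjusted p = 0.0195) and Mylip lower by -0.31 (adjusted p = 0.00831). Each of these tests compares the 24 h and 2 h Control libraries as well as the treated ones. Control 24 h was not itself tested against Control 2 h, but Control means differed between the times. In WT they were 55.91 CPM at 2 h and 119.1 at 24 h for Scd2, 1093 and 838.4 for Abca1, and 222.4 and 267.2 for Abcg1. In KO they were 66.56 and 125 CPM for Scd2, 969.2 and 786.5 for Abca1, and 192.5 and 241.2 for Abcg1.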

How the results depend on the processing

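No paired analysis was possible because the columns carry no replicate numbers. Members were called 25 times over the 8 treatment comparisons, 3 times over the 7 genotype comparisons, 0 times over the 4 tests of genotype by treatment, 8 times over time in Control, 14 times between palmitate and LPS and 10 times between the 24 h and 2 h effects. The share of all genes called ran from 0% to 51.8% over these comparisons and is given with each above. The counts serve here only to compare settings. With only the libraries compared in the fit, the genotype count was 1 in place of 3. Of the 2 calls missing there, that of Abcg1 at LPS 2 h was lost, and Scd1 at Control 0 h fell under the filter and was not tested. Leaving out 1 library gave 22 to 25 treatment calls, 2 to 4 genotype calls, 0 for genotype by treatment, 7 to 9 for time, 14 to 15 for palmitate against LPS and 9 to 10 for the 24 h against the 2 h effect. Over all members and comparisons, leaving out a library lost a call 40 times, gained one 11 times, left 2289 values on the same side of the threshold and reversed 0. RLE size factors lost 1 call (Abcg1, palmitate at 2 h in WT). All genes with a count lost 1 (Scd1, LPS at 24 h in KO) and gained 1 (Mylip, KO against WT at LPS 2 h), DESeq2 gained that same Mylip call, and only the libraries compared lost 2 (Nr1h2, LPS at 2 h in KO, and Abcg1, KO against WT at LPS 2 h). Scd1 fell under the filter in some of these fits. Without the Control 0 h libraries 0 calls changed, and that setting gives no count over all genotype comparisons or over time in Control. Depth limits Scd1, at 1 to 22 counts per library.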
